A study of Rattus norvegicus with 6 samples.

Results

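The aryl hydrocarbon receptor (AhR), its partner and repressors, and the enzymes it is best known to induce were followed in renal cortex of rats dosed with monuron, a phenylurea herbicide. The 8 genes were Ahr, Arnt, Ahrr, Tiparp, Cyp1a1, Cyp1a2, Cyp1b1 and Aldh3a1, and their probes were found by matching the accession printed for each probe to RefSeq genes. This gave 10 probes for 7 of the 8 genes, out of 61537 non-control probes and 15645 genes with a symbol. No probe was named for Tiparp by this match, so Tiparp was not analysed here. The animals were male Sprague-Dawley (Crl:CD(SD)) rats bought at 5 weeks of age and kept on a basal diet. Over 4 weeks, 3 of them were given monuron at 200 mg/kg/day, in a vehicle the labels do not name, and the other 3, the controls, were given corn oil. Cortical RNA of each animal, labelled with Cy3, was run on its own 1-colour Agilent array. The monuron arrays shared 1 slide and 1 scan day and the corn oil arrays another slide and day, so neither the slide nor the day of scanning can be told apart from monuron in any value below.

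AhR is a ligand-activated transcription factor of the bHLH-PAS family that waits in the cytosol bound to HSP90 and other chaperones. Once it binds a planar aromatic ligand it enters the nucleus, pairs with ARNT and binds DNA elements with the core GCGTG. Cyp1a1, Cyp1a2 and Cyp1b1 encode P450 enzymes that oxidise aromatic compounds, Cyp1a2 being most abundant in liver, while AhRR and TIPARP act as feedback repressors of the receptor.

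Levels are given as the processed signal divided by the array's 75th percentile of all non-control probes, so that 1 is the brightness of a probe at that percentile. The levels of different probes are not comparable with each other. The scanner software marks a spot as well above background or not, and between 68.7% and 70.4% of probes were so marked on the monuron arrays, against 60.9% to 70.1% on the corn oil arrays. All 10 proximal tubule markers examined, among them Lrp2, Cubn and Slc34a1, passed the detection filter described next.

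Of the 7 genes with a probe, 5 passed the filter, which kept a probe only if every array of either group, or of both, had it well above background. Of these 5, 0 were called higher and 0 lower with limma at an adjusted p of 0.05, where 1.36% of the 30229 genes tested were called (287 higher, or 0.949%, and 125 lower, or 0.414%). Only 12072 of the 30229 had a symbol. Each accession without a symbol was counted as a gene, here and in every share of all genes below, so several may stand for 1 gene. Without scaling between arrays the numbers over all genes were 366 higher and 61 lower, and scaled on spike-in controls 300 higher and 20808 lower. An unadjusted p under 0.05 was reached by 2 of the 5, Ahrr and Cyp1a2, and by 5320 of all genes. Groups did not overlap for Ahrr and Cyp1a2, or for 25.7% of all genes tested (15.5% higher and 10.3% lower). Cyp1a2 and Arnt passed the filter only through the monuron arrays, and Cyp1a2 was measured on none of the corn oil arrays. The filter thus favoured higher monuron values in these genes, so these counts are no support. Bulk cortex was measured, so fewer or more cells of a type and less or more RNA per cell cannot be told apart.

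**Figure D1:**
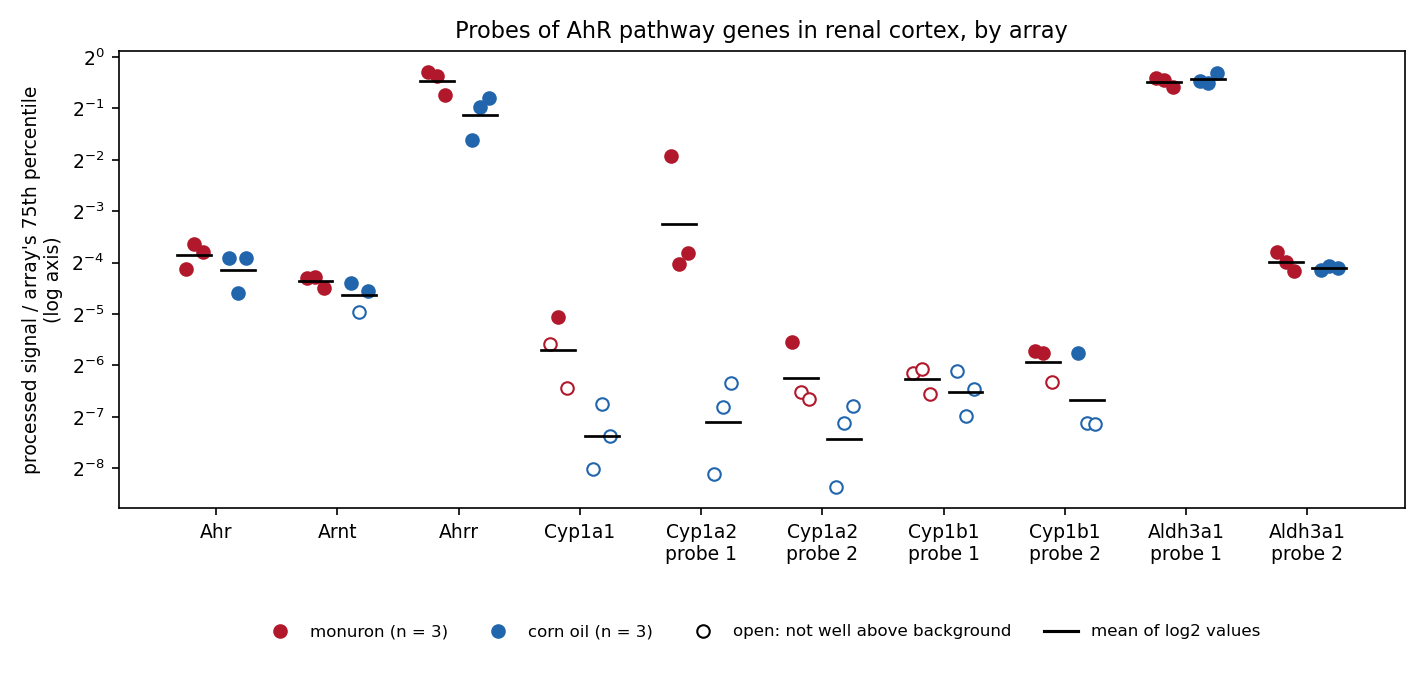
Signal over the array's 75th percentile (log axis) for all 10 probes, monuron left of corn oil within each probe, 3 arrays per group. Open points were not well above background, and the bars are means of log2 values. All 3 monuron points of the brighter Cyp1a2 probe are filled and all 3 corn oil points are open, while the points of Ahr, Arnt and Aldh3a1 overlap between groups.

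The DNA before the start sites is shown for the repressor gene Ahrr, for Cyp1a2 and for Nqo1, the genes the results below turn on. Each is a window of 300 bases, 250 before to 50 after the start site, from RefSeq on build GRCr8, with every match to GCGTG, or to its reverse complement CACGC, in capitals. Ahrr lies on chromosome 1 (chr1:30821969-30822268, plus strand), Cyp1a2 on chromosome 8 (chr8:66978100-66978399, minus strand) and Nqo1 on chromosome 19 (chr19:52220218-52220517, minus strand).
Ahrr: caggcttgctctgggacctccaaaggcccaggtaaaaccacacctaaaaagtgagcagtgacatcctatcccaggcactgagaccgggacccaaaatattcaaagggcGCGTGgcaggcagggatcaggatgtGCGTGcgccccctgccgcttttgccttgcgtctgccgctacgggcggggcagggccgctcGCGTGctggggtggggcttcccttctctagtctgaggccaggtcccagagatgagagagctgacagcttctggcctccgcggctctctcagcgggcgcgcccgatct
Cyp1a2: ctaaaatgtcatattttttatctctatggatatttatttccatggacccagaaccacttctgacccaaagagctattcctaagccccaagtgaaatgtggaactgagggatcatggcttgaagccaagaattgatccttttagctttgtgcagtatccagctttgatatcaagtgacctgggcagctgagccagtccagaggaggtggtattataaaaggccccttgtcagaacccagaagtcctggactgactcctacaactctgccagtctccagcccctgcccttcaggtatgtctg
Nqo1: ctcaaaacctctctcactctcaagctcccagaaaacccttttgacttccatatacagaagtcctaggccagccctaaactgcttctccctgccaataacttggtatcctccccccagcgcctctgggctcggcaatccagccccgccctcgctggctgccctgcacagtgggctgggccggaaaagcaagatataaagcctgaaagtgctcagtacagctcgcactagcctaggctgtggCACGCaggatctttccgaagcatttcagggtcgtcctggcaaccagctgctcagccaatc
Ahrr held 3 matches, Nqo1 held 1, and the Cyp1a2 window held 0. A promoter was found for 6 of the 8 genes (all but Cyp1a1 and Aldh3a1), and 4 of the 6 held the core on either strand: Ahrr, Cyp1b1 with 2 matches, and Arnt and Tiparp with 1 each. In all 33469 promoters of this length 29.7% held it. The longer form TNGCGTG, which contains the core, was found in Ahrr and Cyp1b1, and in 4.89% of all promoters. A match describes the letters in the window and is not evidence of binding, and elements that lie farther out were not searched.

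Ahr, the receptor gene, was detected on every array at a low level. Its level was 0.0572, 0.0802 and 0.0722 on monuron replicates 1 to 3, against 0.0667, 0.0414 and 0.0667 on corn oil replicates 1 to 3. The groups overlapped, with monuron replicate 1 below 2 of the corn oil arrays and the lowest value on corn oil replicate 2. The log2 fold change was 0.28 ± 0.23 (SE, adjusted p = 0.573). Without corn oil replicate 2 it was 0.05, and its sign turned to -0.23 when arrays were scaled on spike-in controls. That scaling shifted the genes together, with the median of all genes at -0.48 in place of 0.02. The same shift lies in every spike-in value below.

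Arnt, which encodes the partner AhR needs to bind DNA, had levels of 0.0506, 0.0515 and 0.0446 with monuron and 0.0477, 0.0320 and 0.0425 with corn oil. Its probe was well above background on all 3 monuron arrays and on 2 of the 3 corn oil arrays, and the groups overlapped. The log2 fold change was 0.28 ± 0.16 (adjusted p = 0.424), or -0.23 with spike-in scaling. Without corn oil replicate 2, where the probe was not well above background, it was 0.12. Neither Ahr nor Arnt was called under any of the alternatives examined. The interval of the difference for Ahr ran from 0.820-fold to 1.80-fold and that for Arnt from 0.923-fold to 1.60-fold, and both intervals include no difference.

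Ahrr encodes a repressor that competes with AhR for ARNT and is itself an AhR target. The level of Ahrr was 0.822, 0.779 and 0.602 on the monuron arrays, against 0.326, 0.512 and 0.577 on the corn oil arrays. All 3 monuron values lay above all 3 corn oil values, although monuron replicate 3 exceeded corn oil replicate 3 by little. The means were 0.735 ± 0.117 with monuron and 0.472 ± 0.130 with corn oil (SD, n = 3 each). Ahrr was 1.59-fold above corn oil (95% interval 1.05 to 2.41), with unadjusted p = 0.0347 and adjusted p = 0.246, and so was not called. The adjusted p ranged over 0.166 to 0.615 across 21 alternatives, all of which kept the sign. Leaving out corn oil replicate 1, the lowest array, gave a log2 fold change of 0.42 in place of 0.67, and scaling on spike-in controls gave 0.16.

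The probes of the 3 P450 genes lay near background on many arrays. The brighter of the 2 Cyp1a2 probes read 0.265, 0.0615 and 0.0710 on monuron replicates 1 to 3, all well above background. It read 0.00359, 0.00888 and 0.0123 on corn oil replicates 1 to 3, none of them well above background. The corn oil readings were thus not measured levels. The lowest signal well above background on corn oil replicate 2 was 0.0359, beside 0.0615 on the dimmest monuron array. Monuron replicate 1 was far above the other monuron arrays.

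Since none of the corn oil arrays measured Cyp1a2 above background, its difference has only a bound: it was at least 4.47-fold higher with monuron, taking for each corn oil array the lowest signal well above background. That bound was 2.81-fold without monuron replicate 1. With normexp background correction and quantile normalization the fitted difference was 2.30-fold, below the bound. With low values raised to each array's detection floor, as in the bound, the adjusted p was 0.181, and on the signals as measured it was 0.0763, so Cyp1a2 was not called. Over 20 alternatives the adjusted p ran over 0.00918 to 0.229. The 1 alternative that called it was spike-in scaling, under which 20808 genes were called lower.

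The dimmer Cyp1a2 probe was well above background on 1 array of the 6, monuron replicate 1. It read 0.0214, 0.0109 and 0.0100 with monuron, against 0.00302, 0.00723 and 0.00902 with corn oil. The groups did not overlap here either, but monuron replicates 2 and 3 were close to corn oil replicate 3. No fold is given, since all signals but that of monuron replicate 1 were not well above background.

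Cyp1a1, the enzyme gene usually taken as the most sensitive readout of AhR activity, had 1 probe, and it was well above background on monuron replicate 2 alone. Its signal was 0.0208, 0.0301 and 0.0115 on the monuron arrays and 0.00386, 0.00927 and 0.00603 on the corn oil arrays. The monuron values were all above the corn oil values, yet 5 of the 6 lay in the range the scanner does not separate from background, so neither a fold nor a test is given.

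Cyp1b1, the family member expressed mostly outside the liver, had 2 probes. One of them was not well above background on any array, at 0.0106 to 0.0150 with monuron and 0.00795 to 0.0144 with corn oil. The other read 0.0191, 0.0185 and 0.0125 with monuron, against 0.0185, 0.00721 and 0.00711 with corn oil, and was well above background on monuron replicates 1 and 2 and corn oil replicate 1. The groups of both probes overlapped.

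Aldh3a1 encodes an aldehyde dehydrogenase that in rat liver is strongly induced by AhR ligands. Its brighter probe read 0.758, 0.732 and 0.669 with monuron and 0.720, 0.708 and 0.809 with corn oil, and it was well above background on every array. The groups overlapped closely, with means of 0.720 ± 0.0454 with monuron and 0.746 ± 0.0555 with corn oil (SD, n = 3 each). The log2 fold change was -0.05 ± 0.09 (adjusted p = 0.803), and the 95% interval, 0.832-fold to 1.12-fold, was the narrowest of the 5 members tested. The dimmer probe had 0.0723, 0.0629 and 0.0561 with monuron against 0.0564, 0.0599 and 0.0584 with corn oil, a log2 fold change of 0.12 ± 0.11 with overlapping groups. With spike-in scaling, which moved the median of all genes to -0.48 in place of 0.02, the brighter probe stood at -0.56 and was called lower (adjusted p = 0.00753).

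Among marker lists of other cells, transcripts typical of liver also varied between these arrays. Of 18 hepatocyte markers 17 were tested and 0 called, where 1.36% of all genes tested were called. Of the 17, 15 had a log2 fold change above 0, and the median of the 17 was 0.97. Their summed level, which follows the brightest probes, was 110 to 153 with monuron and 114 to 134 with corn oil. Most of that sum was Serpinc1, antithrombin, at 82.3 to 99.3 with monuron and 96.9 to 110 with corn oil, and without it the sum was 28.0 to 54.0 with monuron and 17.4 to 35.3 with corn oil. Alb was well above background on all 6 arrays. The mean of the markers' centred log2 levels was 1.18, 0.17 and -0.10 on monuron replicates 1 to 3, against -0.93, -0.81 and 0.50 on corn oil replicates 1 to 3. In the other marker lists 0 genes were called, of 7 tested for other nephron segments, 8 for endothelium and stroma, 6 for immune cells and 4 for airway and squamous epithelium. Monuron replicate 1, the highest array for these hepatocyte markers, was also the highest for both Cyp1a2 probes. Corn oil replicate 3 scored above monuron replicates 2 and 3, and the brighter Cyp1a2 probe read 0.0123 on it, not well above background. On those monuron arrays that probe read 0.0615 and 0.0710. The part of liver transcripts in the Cyp1a2 and Ahrr values was not tested. The fits in the next paragraph cannot decide it, with few arrays and with corn oil values of Cyp1a2 not measured above background.

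Alb, serum albumin, stood at 15.3, 4.35 and 4.11 with monuron, against 1.33, 1.09 and 6.34 with corn oil. It was highest on monuron replicate 1 and next highest on corn oil replicate 3, and the groups overlapped. With the marker score as a covariate the log2 fold change of Ahrr was 0.38 ± 0.23 (adjusted p = 0.505). Without monuron replicate 1 and corn oil replicate 3, the highest arrays in the score, it was 0.75 ± 0.28 (adjusted p = 0.387). Cyp1a2 was not called in either fit (adjusted p = 0.135 and 0.200). Over all genes the covariate fit called 84 higher and 7 lower. The fit without those arrays called 0 higher and 0 lower of 30507 genes, so a missing call there says nothing about a single gene.

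**Figure D2:**
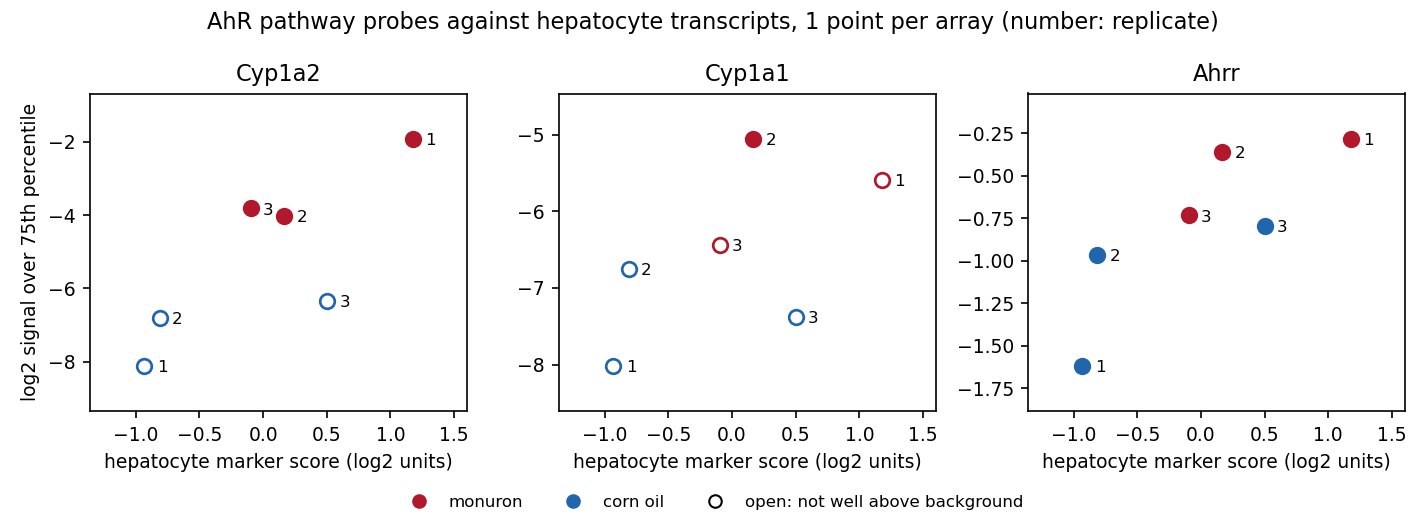
Log2 signal over the 75th percentile (vertical) of Cyp1a2 (brighter probe), Cyp1a1 and Ahrr against the mean centred log2 level of 17 hepatocyte markers (horizontal), 1 point per array, numbered by replicate. Open points were not well above background. The score is highest on monuron replicate 1 (1.18) and lowest on corn oil replicate 1 (-0.93), and all 3 corn oil points of Cyp1a2 are open.

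Among further genes known to respond to AhR, single genes were called. Of 22 such genes 20 had a probe and 15 were tested, with 1 higher (Nqo1) and 1 lower (Inmt), and 10 above 0. The median log2 fold change was 0.06, beside 0.02 for all genes tested. Over all genes tested 0.949% were called higher and 0.414% lower. The calls of Nqo1 and Inmt were already known when the list was drawn up, so their count is no support.

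Nqo1, a quinone reductase that both AhR and the stress factor NRF2 can induce, read 0.918, 0.609 and 1.08 with monuron and 0.190, 0.150 and 0.139 with corn oil. Even the lowest monuron array was far above the highest corn oil array. It was 5.33-fold higher (log2 fold change 2.41 ± 0.24, adjusted p = 0.0176), and a second probe gave 2.30. It was called under 12 of 21 alternatives, and with 1 array left out at a time only in the fit without monuron replicate 2 (adjusted p 0.0344 to 0.0875 over the 6 such fits). Adjusted for the hepatocyte score it stood at 2.51 (adjusted p = 0.0770).

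Inmt, a methyltransferase of tryptamine and related amines, had levels of 0.845, 0.966 and 0.827 with monuron, against 2.62, 2.45 and 3.68 with corn oil. It was 3.27-fold lower (-1.71 ± 0.17, adjusted p = 0.0179), with no overlap between groups, as in 25.7% of all genes tested. It was called under 13 of 21 alternatives. With 1 array left out it was called only without corn oil replicate 2 or 3 (adjusted p 0.0300 to 0.0918 over 6 fits). With the hepatocyte score as a covariate its adjusted p was 0.0510.

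Ugt1a6, a glucuronosyltransferase of phenols and a known AhR target in rat liver, read 78.2, 95.5 and 89.9 with monuron and 53.5, 64.2 and 66.4 with corn oil. The groups did not overlap, as in 25.7% of all genes tested. The difference was not called (log2 fold change 0.52 ± 0.12, adjusted p = 0.116), and with spike-in scaling it was 0.01. Its 3 probes gave 0.52 to 0.63. Probes of the UGT1A genes may share sequence, since these genes share exons.

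Myc, a growth-promoting transcription factor, had 1.42, 1.52 and 1.53 with monuron against 0.997, 0.729 and 0.595 with corn oil, again with no overlap and no call (0.98 ± 0.19, adjusted p = 0.0857). It was called under 4 of 21 alternatives. The log2 fold change of Nfe2l2, which encodes NRF2 itself, was 0.02 ± 0.07 (adjusted p = 0.906), and that of the glutathione transferase gene Gsta2 was 0.06 ± 0.19 (adjusted p = 0.903). Both had groups that overlapped.

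The cytosolic partners of the receptor gave 0 calls among 6 genes, where 1.36% of all genes tested were called, with a median of 0.05. The HSP90 genes were nominally higher: Hsp90aa1 read 60.5, 74.4 and 89.2 with monuron against 52.1, 56.1 and 54.2 with corn oil (0.45 ± 0.15, adjusted p = 0.211). Hsp90ab1 read 40.6, 44.8 and 49.7 with monuron against 33.1, 37.0 and 34.2 with corn oil (0.37 ± 0.10, adjusted p = 0.145). The groups did not overlap in either gene, as in 25.7% of all genes tested. The differences were not called and had signs below 0 with spike-in scaling (-0.06 and -0.14). Ptges3, the HSP90 co-chaperone p23, differed by 0.13 ± 0.08 on the log2 scale, with overlapping groups. Stub1, a ubiquitin ligase that acts on chaperone clients, was at -0.13 ± 0.06 (adjusted p = 0.342).

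Among 16 relatives of AhR and ARNT in the bHLH-PAS family 14 were tested and 0 called (1.36% of all genes tested were), with a median of -0.05. Clock, a circadian factor, came closest, at 0.447, 0.427 and 0.430 with monuron against 0.330, 0.354 and 0.305 with corn oil (0.40 ± 0.08, adjusted p = 0.0861), or -0.11 with spike-in scaling. Arnt2, the ARNT paralogue, had 0.20 ± 0.10 and the hypoxia factor gene Hif1a, whose product competes for ARNT, 0.01 ± 0.06, while Npas2, a paralogue of Clock, had -0.24 ± 0.16. Of 12 coactivators and corepressors 8 were tested, 0 were called and the median was 0.02. The smallest p among them belonged to the retinoblastoma gene Rb1 (0.17 ± 0.06, adjusted p = 0.248), whose other probe gave -0.01. The chromatin remodeller gene Smarca4 followed with 0.16 ± 0.07 and the corepressor gene Nrip1 with 0.20 ± 0.10, but other probes of these genes went as low as -0.10 and -0.05.

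Genes that supply P450 enzymes with electrons and heme were examined too. All 13 were tested and 0 were called, where 1.36% of all genes tested were called, and the median was 0.00. At that share, 0 calls among 13 genes say nothing about the list. Por, the reductase that serves microsomal P450s, stood at a log2 fold change of -0.03 ± 0.08 (adjusted p = 0.894), and Alas1, the first enzyme of heme synthesis, one of 0.10 ± 0.20 (adjusted p = 0.835). Fech, which inserts iron into heme, read 1.74, 1.60 and 1.79 with monuron against 1.36, 1.32 and 1.37 with corn oil. Its groups did not overlap, as in 25.7% of all genes tested, and it was not called (0.34 ± 0.07, adjusted p = 0.0952). Cyb5b, an outer mitochondrial membrane cytochrome b5, had 0.32 ± 0.13, with another probe at -0.09, and Cpox, an earlier enzyme of heme synthesis, 0.34 ± 0.17, neither of them called. With spike-in scaling these values were -0.17 for Fech, -0.18 for Cyb5b and -0.17 for Cpox.

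**Figure D3:**
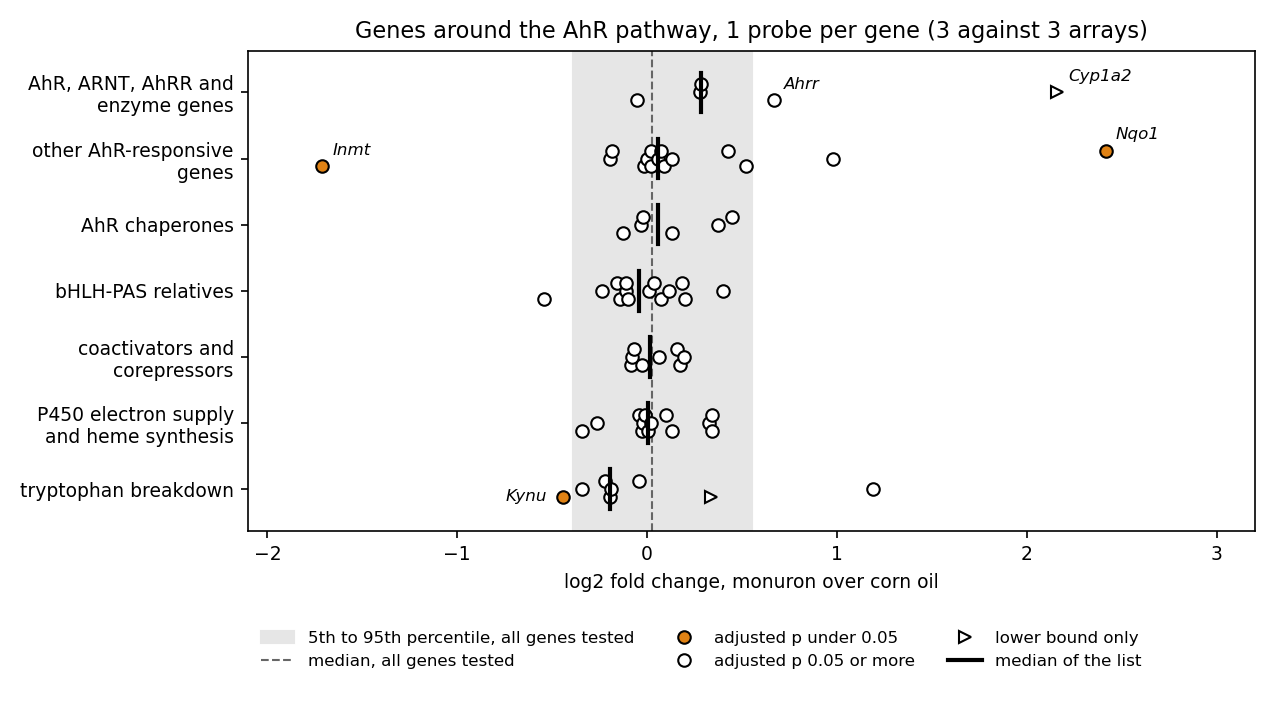
Log2 fold change of monuron over corn oil (horizontal) for each gene tested, by list, with the list's median as a bar, the 5th to 95th percentile of all genes in grey and their median dashed. Filled points had an adjusted p under 0.05: Nqo1 at 2.41, Inmt at -1.71 and Kynu at -0.44. Triangles mark genes measured with monuron only, at their lower bound, among them Cyp1a2. All dots of the chaperones, of the coactivators and corepressors and of the P450 electron and heme genes lie within the grey band, and the other 4 lists have points outside it.

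Enzymes that break down tryptophan make kynurenine and related compounds, some of which are AhR ligands. Of 11 such genes 8 were tested, with 0 higher and 1 lower (0.949% and 0.414% of all genes tested), and the median was -0.19. Kynu, kynureninase, fell: it read 13.4, 12.8 and 13.2 with monuron, against 17.4, 18.0 and 18.2 with corn oil, 1.36-fold lower (-0.44 ± 0.06, adjusted p = 0.0403). The 3 monuron values sat close together below the corn oil values, and the second probe gave -0.33. The call held under 9 of 21 alternatives and ended whichever of the 6 arrays was left out (adjusted p 0.102 to 0.149).

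Aadat, which converts kynurenine to kynurenic acid, went the other way without being called, at 15.4, 32.4 and 28.7 with monuron against 7.96, 15.0 and 10.1 with corn oil (1.19 ± 0.36, adjusted p = 0.183). Its lowest monuron value barely exceeded its highest corn oil value. Kyat1 and Kyat3, other aminotransferase genes of this list, stood below 0, at -0.20 ± 0.07 and -0.19 ± 0.18 (adjusted p = 0.255 and 0.628). Neither of them was called. Haao, which opens the ring of hydroxyanthranilate, had 11.5, 13.0 and 13.6 with monuron against 15.6, 16.9 and 15.7 with corn oil (-0.34 ± 0.09, adjusted p = 0.136). Tdo2, the liver enzyme that starts the pathway, was well above background on all 3 monuron arrays and 0 of 3 corn oil arrays. It passed the filter only through monuron, its bound of 1.26-fold was 1.00 without monuron replicate 1, the measured groups overlapped, and it was not called (adjusted p = 0.468). Of the 10 proximal tubule markers 0 were called (1.36% of all genes tested were). Their log2 fold changes ran from -0.69 to 0.10, 9 of them below 0, with a median of -0.19. Their summed level was 1664 to 1887 with monuron against 2060 to 2274 with corn oil, but such a sum follows its brightest probes. The brightest, Miox, read 567, 434 and 547 with monuron against 650, 714 and 745 with corn oil. The part of these markers in the lower Kynu and Haao values was not tested.

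**Figure D4:**
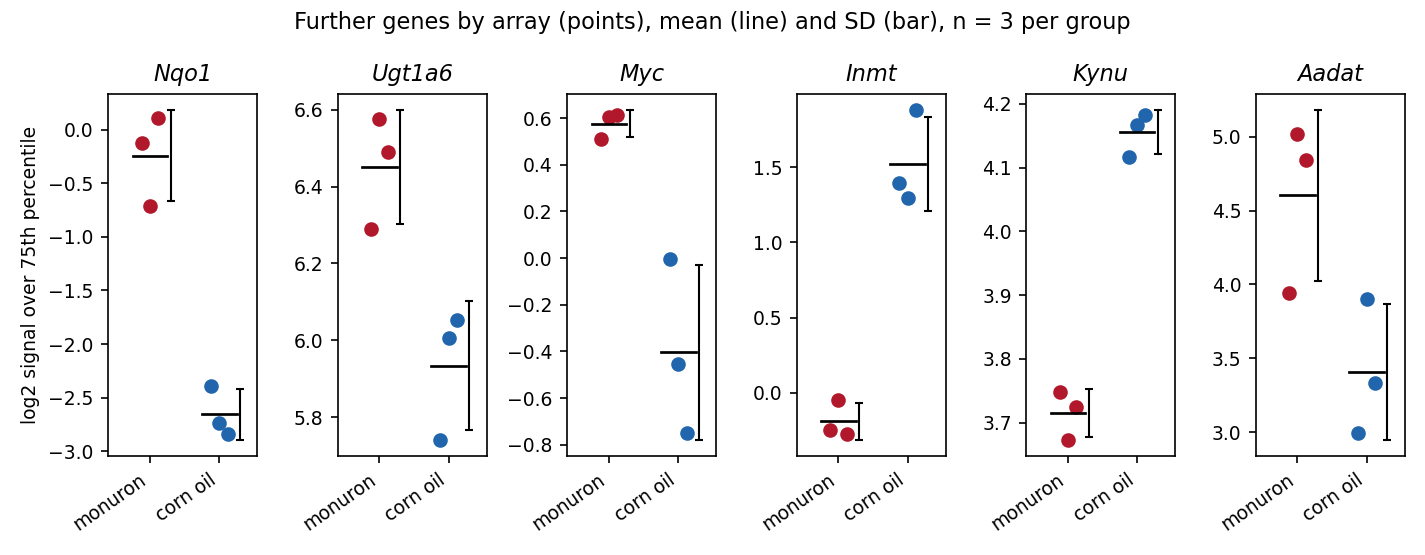
Log2 signal over the 75th percentile by array for 6 genes, monuron left of corn oil, with the mean (line) and SD (bar), n = 3 per group. The groups do not overlap in any of the 6 genes, of which Nqo1, Inmt and Kynu were called. The genes shown were picked with their values known, so this separation is no support, and groups did not overlap for 25.7% of all genes tested.

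The profiles most like those of the members were found as the smallest root mean square difference of centred log2 levels over the 6 arrays, among all tested genes with a symbol. For Cyp1a2 none are given, since its corn oil values were not measured above background. For Ahrr (own spread 0.44) they were Reg3a at 0.09 and Or1j22 at 0.11. For Ahr they were Lypd1 and Syt11, each at 0.07, for Arnt Flrt2 at 0.05 and Fadd at 0.07, and for Aldh3a1, which hardly varied, Ndst1 at 0.02 and Rhoj at 0.03.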

How the data were processed

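The deposited scanner files give spot intensity on a linear scale. The submitters' processing notes name Agilent Feature Extraction 10.7, whose processed signal was used. The value table the authors deposited is a linear ratio, each processed signal over 1 constant per array (99th percentile of the deviation at most 0.0377% for values of 0.1 or more), with column medians of 0.111, 0.111 and 0.110 for monuron and 0.108, 0.111 and 0.112 for corn oil. The labels set the groups and replicate numbers and name no shared litter. The members and lists were chosen with earlier results of these data known.

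The processed signal was scaled on each array's 75th percentile over 61537 non-control probes and taken to log2. The 1439 control spots and outlier spots were left out, and 0 spots were saturated. Accessions without versions, matched to RefSeq (GRCr8), named 28206 probes (45.8%), a newer build than the array was designed on, so no probe coordinates are given. Of 41125 probes passing the detection filter, the brightest per gene was tested, or per accession where no symbol was named. The test was limma 3.58.1 under R 4.3.3 (lmFit, eBayes, two-sided, Benjamini-Hochberg over these 30229 genes and accessions). The scanner files hold a median spot signal and no mean, so normexp (offset 50) used the median.

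The error of a log2 fold change is its standard error. The number of arrays, 3 per group, limits the precision. Same-numbered arrays showed deviations correlated at -0.08, 0.11 and -0.17, so the numbers were not taken as pairs. Named were all 8 members, called genes of each list or otherwise up to 3 with the smallest p, and the 2 nearest profiles per member (for Cyp1a2 left out). Some uncalled list genes beyond that rule (Nfe2l2, Gsta2, Ptges3, Hif1a, Por, Alas1, Tdo2, Kyat1 and Kyat3) were named for their role after their values were seen. So were Ugt1a6 and Myc, Aadat and Haao beside the called genes of their lists.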

Additional observations from a re-analysis of the deposited data

How the results depend on the processing

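Under 21 of 22 alternatives limma called 0 members, while 1 to 3 members had an unadjusted p under 0.05. The exception was scaling on spike-in controls, with 1 member higher (Cyp1a2) and 1 lower (Aldh3a1, -0.56). Over all genes, 0.949% (287) were called higher and 0.414% (125) lower. The shares were 1.48% (446) and 1.04% (314) with normexp and quantile normalization, 0.147% (67) and 0.0418% (19) with no detection filter, and 1.43% (431) and 0.913% (276) with a trended and robust eBayes. They were 0.278% (84) and 0.0232% (7) with the hepatocyte score as a covariate. Without scaling 0.202% (61) were lower, and with spike-in scaling, which put the all-gene median at -0.48, 68.8% (20808). With the replicate number as a block, limma called 0 and 0 (4557 at an unadjusted p under 0.05), and Cyp1a2 had an adjusted p of 0.229, but the numbers do not pair the samples. Without monuron replicate 1 and corn oil replicate 3 it called 0 and 0 (4190 at an unadjusted p under 0.05). Leaving out 1 array at a time gave 0.0821% (without monuron replicate 1) to 0.366% (without corn oil replicate 3) higher, 0.0164% to 0.0891% lower, and 0 members in either direction. Cyp1a2 and Arnt could not be fitted with detection on all 6 arrays. The bound of Cyp1a2 without corn oil replicate 2, the array with the highest detection floor, was 5.53-fold. That bound, those without monuron replicate 1 and the sum without Serpinc1 were chosen after seeing the data. The slide could not be fitted as a block, since 0 of the 2 slides held both groups. The causes of these shifts were not tested. Cyp1a1 and Cyp1b1 are limited by signals near background.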
